A study of Mus musculus with 3 samples.

Results

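Detected small nucleolar RNAs (snoRNAs) and small Cajal body RNAs (scaRNAs) were examined in the cytosol of stimulated mouse macrophages. A member was any gene annotated as snoRNA or scaRNA whose expected count, the estimated number of its reads, averaged at least 10 over the 3 libraries. By this rule 27 of 1558 annotated snoRNA and scaRNA genes were members, 21 of 1507 snoRNAs and 6 of 51 scaRNAs, among 55536 annotated genes in all. The members were thus chosen by the expected counts themselves, so levels are given as a description with no test.

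Each library was made from macrophages grown out of the bone marrow of C57BL/6J mice, using the total RNA of their cytosolic fraction after removal of ribosomal RNA. All cells had received lipid A, a ligand of Toll-like receptor 4, at 100 ng/ml for 90 min. The 3 libraries, biological replicates 1 to 3, formed a single group; the labels give all of them the same donor identifier and record neither sex nor age, so a p-value measures only the spread between these samples. Unstimulated cells and nuclei were not analysed here. No response to lipid A and no split between nucleus and cytosol was therefore measured.

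The annotated genes took 33671556, 47764593 and 59332546 expected counts in replicates 1, 2 and 3. The 9 macrophage markers summed to 7324, 5625 and 5296 TPM (a level corrected for transcript length and library size), each averaging at least 20.6. Against this, 6 neutrophil markers summed to 24.2 to 41.7 TPM, and the T cell, B cell, erythroid and fibroblast lists to at most 0.70 TPM each, with 2 of 4 erythroid markers at 0 counts in every library. Reads carried no molecular identifiers, so intervals and count floors cover counting error only.

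SnoRNAs guide enzymes to nucleotides of ribosomal RNA. Those of the box C/D class direct 2′-O-methylation and those of the box H/ACA class direct pseudouridylation, while a few, such as the U3 RNAs, are needed for cleavage of the ribosomal RNA precursor. ScaRNAs use the same boxes to guide modification of spliceosomal small nuclear RNAs in Cajal bodies. Both kinds are best known as nuclear RNAs, and most in mammals are cut out of the introns of host genes.

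The sequences on which the results turn are given first, from the GENCODE M21 transcripts on mm10, written 5′ to 3′. Capitals mark TGATGA starting within the first 15 bases, as in a C box, CTGA within the last 15 bases, as in a D box, or ACA lying 3 bases from the 3′ end, as in the H/ACA class. Only the transcript's own strand was searched, and a match is a description of letters. The first set holds the first and last 100 bases of the 3 members with the most reads: Gm22009 at chr3:69085105-69085447 on the minus strand, Scarna10 at chr6:125186359-125186683 on the minus strand, and Scarna2 at chr3:108554338-108554751 on the minus strand.
Gm22009 5′ end: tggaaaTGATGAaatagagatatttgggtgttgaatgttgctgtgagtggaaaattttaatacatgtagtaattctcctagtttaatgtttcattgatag
Gm22009 3′ end: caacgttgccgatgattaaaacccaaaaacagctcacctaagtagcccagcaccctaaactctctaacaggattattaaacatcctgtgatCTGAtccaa
Scarna10 5′ end: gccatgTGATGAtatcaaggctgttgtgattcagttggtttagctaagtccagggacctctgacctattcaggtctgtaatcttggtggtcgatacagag
Scarna10 3′ end: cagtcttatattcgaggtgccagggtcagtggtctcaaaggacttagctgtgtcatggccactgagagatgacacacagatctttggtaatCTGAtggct
Scarna2 5′ end: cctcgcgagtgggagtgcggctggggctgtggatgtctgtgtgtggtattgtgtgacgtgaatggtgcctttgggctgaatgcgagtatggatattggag
Scarna2 3′ end: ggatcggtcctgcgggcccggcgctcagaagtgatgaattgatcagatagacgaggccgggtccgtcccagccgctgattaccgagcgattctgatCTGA

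The second set holds the U3 RNAs, whose near-identical copies decide how their reads were counted. Rnu3b1, in its entry of 216 bases, lies at chr11:87443237-87443452 on the plus strand, and Rnu3a, in its entry of 213 bases, at chr10:40258467-40258679 on the plus strand.
Rnu3b1: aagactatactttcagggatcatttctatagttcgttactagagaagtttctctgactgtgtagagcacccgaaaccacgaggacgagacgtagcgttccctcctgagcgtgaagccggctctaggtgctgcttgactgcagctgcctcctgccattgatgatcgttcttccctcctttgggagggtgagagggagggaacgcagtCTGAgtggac
Rnu3a: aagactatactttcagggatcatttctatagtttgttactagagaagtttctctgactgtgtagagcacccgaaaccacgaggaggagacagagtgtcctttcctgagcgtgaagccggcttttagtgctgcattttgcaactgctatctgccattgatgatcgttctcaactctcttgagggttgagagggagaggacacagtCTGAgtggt

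The third set holds 3 members of similar sequence with ACA near the 3′ end. Snora73a lies at chr4:132352775-132352979 and Snora73b at chr4:132352322-132352526, both on the minus strand, and Gm26448 at chr9:120129351-120129553 on the plus strand.
Snora73a: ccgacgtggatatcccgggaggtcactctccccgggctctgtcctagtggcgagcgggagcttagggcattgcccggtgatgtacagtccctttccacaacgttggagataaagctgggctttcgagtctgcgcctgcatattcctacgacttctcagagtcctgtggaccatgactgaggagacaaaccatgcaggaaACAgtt
Snora73b: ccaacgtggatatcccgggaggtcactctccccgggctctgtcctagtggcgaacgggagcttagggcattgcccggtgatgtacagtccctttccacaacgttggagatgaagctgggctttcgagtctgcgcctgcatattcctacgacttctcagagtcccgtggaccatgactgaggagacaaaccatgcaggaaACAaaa
Gm26448: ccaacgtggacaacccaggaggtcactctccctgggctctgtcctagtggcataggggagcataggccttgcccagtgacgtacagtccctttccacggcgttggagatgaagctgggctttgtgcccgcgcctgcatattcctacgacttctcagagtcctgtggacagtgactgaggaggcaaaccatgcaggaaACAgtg

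The last set holds Snord22, the shortest member, at chr19:8725866-8725991 on the plus strand, and Snord17, at chr2:144265979-144266216 on the minus strand, both with a wide spread between libraries.
Snord22: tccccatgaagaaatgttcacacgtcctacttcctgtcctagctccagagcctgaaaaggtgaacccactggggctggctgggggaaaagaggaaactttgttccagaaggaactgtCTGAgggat
Snord17: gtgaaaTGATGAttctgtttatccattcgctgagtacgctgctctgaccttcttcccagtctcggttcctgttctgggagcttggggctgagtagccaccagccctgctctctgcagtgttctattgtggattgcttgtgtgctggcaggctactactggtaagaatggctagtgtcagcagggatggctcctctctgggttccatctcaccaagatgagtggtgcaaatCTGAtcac

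The 27 members came from 23 loci on 12 chromosomes and had 21 distinct sequences. TGATGA near the 5′ end together with CTGA near the 3′ end was found in 6 members (Gm22009, Scarna10, Gm23547, Gm25395, Scarna6 and Snord17), 22.2% of them, against 19.9% of all annotated snoRNAs and scaRNAs and 0.117% of 15332 other transcripts in the members' length range. ACA at the 3′ end was found in 7 members (Snora73a, Snora73b, Gm26448, Gm22988, Gm26083, Gm25776 and Scarna13), 25.9%, against 19.3% and 1.59% of the same sets. The other 14 members, the U3 copies, Snord22 and Scarna2 among them, held neither pattern in these windows. Snora73a and Snora73b were identical at 96.6% of aligned positions, and Gm26448, in an intron of the ribosomal protein gene Rpsa, matched them at 88.3% and 87.8%. Rnu3a matched the Rnu3b copies at 85.2% to 85.6%.

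The members were the long genes of their class. Their annotated lengths ran from 126 to 414 bases with a median of 215, whereas the median of the other annotated snoRNAs and scaRNAs was 127. Of 462 genes under 100 bases none was a member and none had any count in the first deposited quantification, on which all numbers in this paragraph rest. The second gave counts to some of them, such as 19, 51 and 93 to Gm24339 of 76 bases in replicates 1, 2 and 3. Among genes of 100 to 149 bases 3 of 1031 were members (0.291%), among those of 150 to 199 bases 3 of 26 (11.5%), among those of 200 to 249 bases 14 of 28 (50%), and among those of 250 bases or more 7 of 11 (63.6%). The class of 200 to 249 bases holds all 10 annotated Rnu3 entries, 9 of them members. These U3 entries are near-identical or nested copies counted as separate genes, so they raise the 50% and also weigh on the median of 215. Small nuclear RNAs, a class of other short RNAs, were counted in the same way: 0 of 193 genes under 100 bases, 2 of 973 of 100 to 149 bases and 25 of 216 of 150 to 199 bases averaged at least 10 counts. Genes annotated as misc_RNA showed no such rise: 0 of 59 under 100 bases, 1 of 72 of 100 to 149 bases and 0 of 51 of 150 to 199 bases. From 200 to 249 bases it was 0 of 55, and at 250 bases or more 7 of 325 (2.15%).

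**Figure D1:**
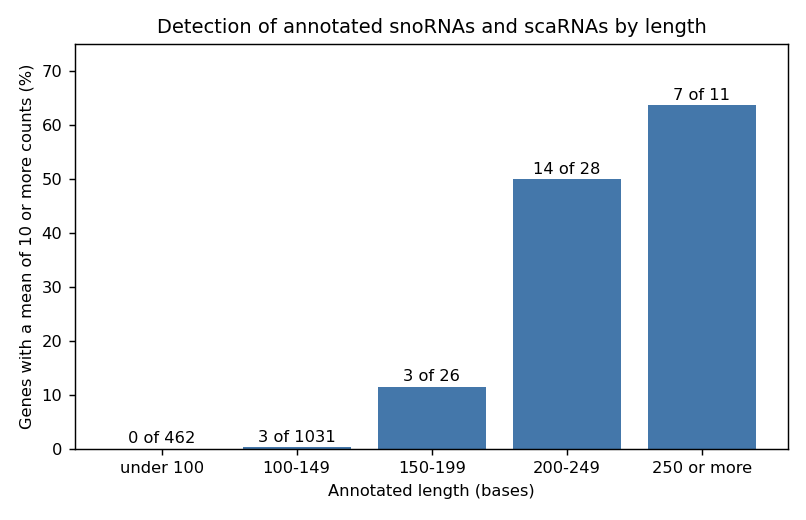
Share of annotated snoRNA and scaRNA genes with a mean of at least 10 expected counts (vertical axis, percent) in 5 classes of annotated length in bases (horizontal axis), with the numbers of genes above each bar. The share was 0 of 462 under 100 bases and 7 of 11 at 250 bases or more.

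The quantification itself treats short genes differently. The effective length, the number of positions where a fragment could start, was 0 for 817, 729 and 699 of the 1558 genes in replicates 1, 2 and 3 (52.4%, 46.8% and 44.9%), and a gene with an effective length of 0 has a TPM of 0 whatever its count. The labels give the same library size range, 250-400, for all 3 libraries. Annotated and effective length move together with detection, and the part of effective length in the result was not tested.

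Well-studied short snoRNAs were listed at 0 in the first quantification, which gave the values in this paragraph. All 4 snoRNAs of the Rpl13a introns (70 to 90 bases), the 4 annotated entries found for the Gas5 introns (66 to 81 bases) and all 19 entries found for the imprinted clusters, namely Snord64, Snord107 and the Snord116 entries (67 to 94 bases), had 0 counts and an effective length of 0 in every library. The host transcript Gas5 itself was measured at 14.2, 14.9 and 13.7 CPM (read counts scaled to library size). Of 20 entries for snoRNAs of ribosomal RNA processing, 13 were members and 7 had 0 counts, among them Snord118 (the U8 RNA), Snord13 and the 4 Snord14 entries.

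At the threshold, the members just inside were Gm26448 with 9, 12 and 26 expected counts in replicates 1, 2 and 3, Snora74a with 0.96, 5 and 34.9, and Gm24119 with 5, 8 and 19. Just outside were Gm26447 with 3.99, 1.99 and 21.9, Snord15a with 0, 8 and 16, and Snord15b with 0.95, 6.87 and 15.8. In all 6 genes replicate 3, the deepest library, held the most counts, which are not scaled for depth here. Of the 27 members, 19 had at least 10 counts in every library.

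Members together were a minor part of each library. They took 2468, 7597 and 14093 expected counts in replicates 1, 2 and 3. These were 0.00730% (95% Wilson interval 0.00701 to 0.00759), 0.0159% (0.0155 to 0.0162) and 0.0237% (0.0233 to 0.0241) of all counts, a mean of 0.0156% ± 0.00822 (SD, n = 3). The intervals do not overlap, and the share in replicate 3 was above that in both other libraries. Of the TPM they took 0.0791%, 0.101% and 0.262%, of which Snord22 alone supplied 32.7% in replicate 3.

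By count, scaRNAs held most of the members' reads. The 6 scaRNA genes took 69.5% ± 5.49 of the members' counts (SD, n = 3), and 84.8% ± 3.23 once Scarna10, annotated as a snoRNA, was added. By TPM the order was the other way: the 6 scaRNA genes summed to 243, 450.2 and 667 TPM in replicates 1, 2 and 3, and the 21 snoRNA genes to 548, 557 and 1957. In the second quantification the mean sums were 144.6 TPM for scaRNAs and 145.2 for snoRNAs. Gm22009, a scaRNA gene in an intron of Kpna4, which encodes a nuclear import receptor, had 1201, 4756 and 7864 counts in replicates 1, 2 and 3, or 175, 370 and 502 TPM. It was the most abundant member by count in every library, with 48.7%, 62.6% and 55.8% of the members' counts, and its count in replicate 1 was the lowest. Scarna10, known to guide both kinds of modification on the U5 small nuclear RNA, had 439, 1018 and 2035 counts (74.1, 90.2 and 148 TPM) and lies within the condensin gene Ncapd2. Scarna2, a guide for the U2 small nuclear RNA that is known to have a promoter of its own, had 230, 626 and 1381 counts (21.3, 32.4 and 58.7 TPM) and lies outside any annotated gene. These 3 genes held 75.8%, 84.2% and 80.0% of the members' counts.

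The other 4 scaRNA genes had lower counts than Gm22009 and Scarna2 in every library. Gm25395 and Scarna6 both lie in introns of the autophagy gene Atg16l1, on the same strand. Gm25395 had 57, 106 and 354 counts, or 16.6, 15.4 and 42.1 TPM, and Scarna6 had 17, 41 and 107 counts, or 5.40, 6.44 and 13.8 TPM. In both, replicate 3 stood above the other libraries. Scarna13, from an intron of the noncoding gene Snhg10, had 56, 100 and 182 counts, or 15.7, 14.0 and 20.96 TPM. On log2 CPM its level in replicate 3 was above that in replicate 1 by 0.95. Gm26083 had 8, 22.7 and 68.8 counts and lies whole inside an exon of Snhg20, so its reads also match host transcripts.

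**Figure D2:**
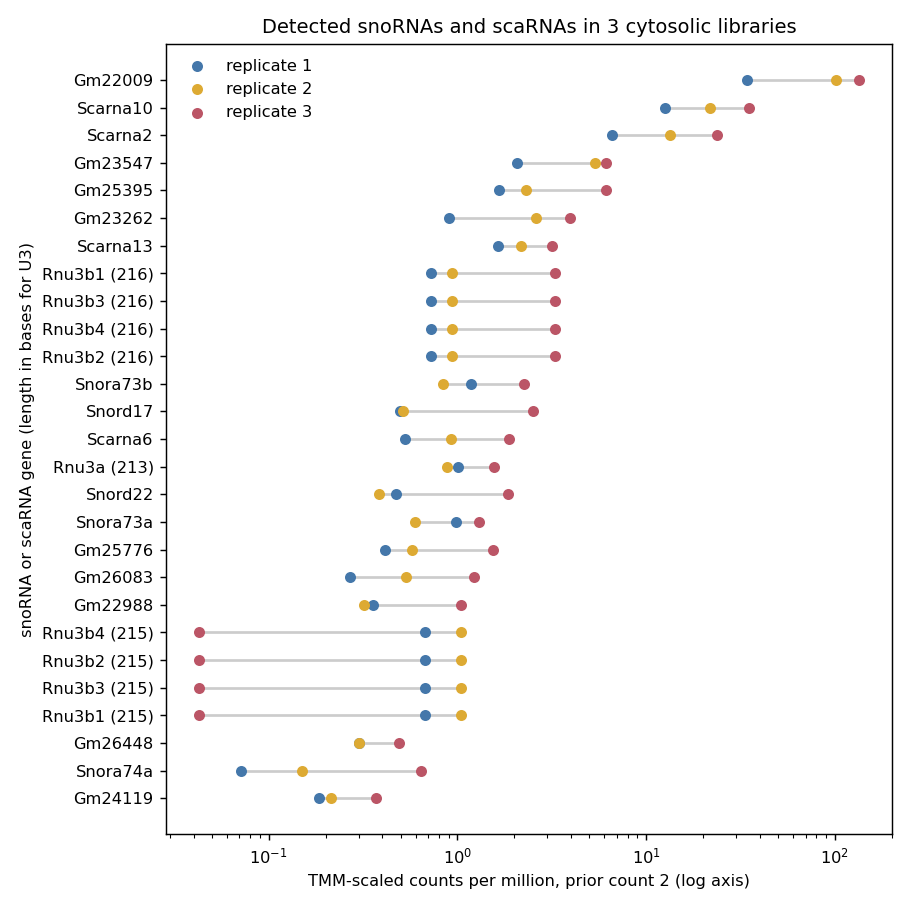
Level of each of the 27 members (vertical axis; U3 entries with their length in bases) as CPM scaled by the trimmed mean of M values (horizontal axis, log scale), 1 point per library and a grey line over the range. Replicate 3 is the highest point in 23 of the 27 genes; the 4 Rnu3b entries of 215 bases are the exception.

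The U3 RNAs, needed for the early cleavages that release the small-subunit ribosomal RNA, were present as 8 Rnu3b entries and 1 Rnu3a entry. Each of the 4 Rnu3b loci on chromosome 11 carries an entry of 216 bases and, nested within it, one of 215 bases, and the 4 copies of each length are identical. The entries of 216 bases had 23.7, 41.8 and 189 counts each in replicates 1, 2 and 3, and those of 215 bases had 21.8, 47.4 and 0.01. Such a split is uncertain, since the deposited posterior counts for the longer Rnu3b1 entry were 24.1 ± 21.6, 44.5 ± 33.3 and 159 ± 104 in replicates 1, 2 and 3 (posterior SD). For the 4 shorter entries together the posterior means summed to 85.0, 178 and 226, so by this measure they were not lower in replicate 3. Added over the 8 entries, Rnu3b had 182, 357 and 756 counts, with replicate 3 the highest. Rnu3a had 34, 39 and 89 counts, also highest in replicate 3. By TPM, however, Rnu3a had 24.58, 13.45 and 25.03, so replicates 1 and 3 were nearly level and replicate 2 was lower.

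The second deposited quantification assigned the same family to other entries. It gave the 4 Rnu3b entries of 216 bases together 335, 639 and 1553 counts and the 215-base entries 0. It gave the 213-base Rnu3a entry 0 and placed 71, 105 and 228 counts on a 214-base Rnu3a entry that the first quantification listed at 0. The family total was thus higher in the second quantification in all 3 libraries, and the order of the libraries was the same in both.

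**Figure D3:**
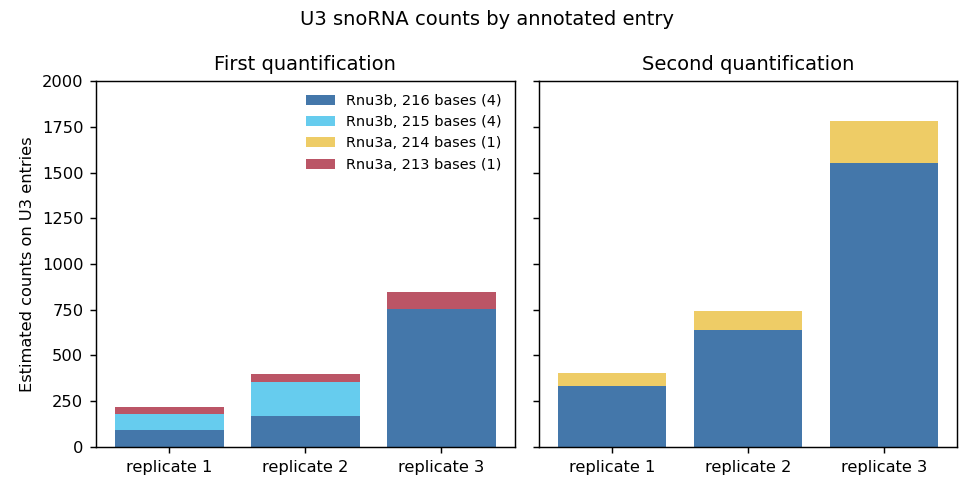
Estimated counts on annotated U3 entries (vertical axis) in replicates 1 to 3 (horizontal axis), stacked by kind of entry, in the first quantification (left) and the second (right). The 215-base Rnu3b entries hold counts only in replicates 1 and 2 of the first quantification, and the second places all Rnu3b counts on the 216-base entries.

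The U17 RNAs Snora73a and Snora73b, box H/ACA members that act in ribosomal RNA cleavage rather than modification, lie within the noncoding host Snhg3. Snora73b had 40, 37.4 and 128 counts (34.0, 15.2 and 42.3 TPM) and Snora73a had 32.9, 25.6 and 72.6 counts (28.1, 10.4 and 23.9 TPM). By TPM, replicate 2 was the lowest in both genes. Gm17300 is annotated on the opposite strand there, and no source used here states whether reads were counted by strand. Despite their similar sequences, the deposited posterior counts divided the reads closely, with 128 ± 1.38 for Snora73b and 72.5 ± 1.21 for Snora73a in replicate 3 (posterior SD).

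Snord17 and Snord22 were the members with a Snord symbol. Snord17, a guide for the large-subunit ribosomal RNA in an intron of the sorting nexin gene Snx5, had 16, 22 and 144 counts, or 7.46, 4.95 and 26.6 TPM. Snord22 had 15, 16 and 105 counts. In both genes replicate 3 stood far above the other libraries, which were close together. The TPM of Snord22 was 0, 0 and 858, with an effective length of 0, 0 and 1.07 positions. It lies whole within exons of Snhg1 transcripts, so its reads also match host transcripts.

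The remaining members carry only numbered gene symbols and are named here by their hosts. Gm23547, in the prohibitin gene Phb2, had 71, 248 and 354 counts (20.9, 36.3 and 42.6 TPM). Gm23262, in the translation factor gene Eif4g2, had 29.97, 120 and 228 counts (68.6, 134 and 202 TPM). On log2 CPM, replicate 2 was above replicate 1 by 1.37 in Gm23547 and 1.54 in Gm23262. Replicate 3 was above replicate 2 by 0.20 and 0.60. By TPM the 3 libraries were about evenly spaced in Gm23262. Gm25776, in Gtf2a1, had 13, 25 and 87 counts and Gm22988, in the translation factor gene Eif4a1, had 11, 12.8 and 57.5, both highest in replicate 3. Gm26448 and Gm24119 (in the phosphate carrier gene Slc25a3) stayed at or below 8.95 TPM in every library.

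The spread between the libraries was then tested for each gene. The edgeR goodness-of-fit test asks whether a gene's counts vary more than genes of like abundance do, with Benjamini-Hochberg adjustment over 12339 genes having at least 10 counts in every library; it called 285 of them (2.31%). Of the 19 members with enough counts 12 were called. The other 8 members had under 10 counts in at least 1 library and were not tested. The smallest adjusted p-values (edgeR) belonged to Gm22009 (1.08e-16), Scarna2 (6.30e-09) and Scarna10 (1.20e-06). Snord17 followed with 0.00232, the 4 Rnu3b entries of 216 bases with 0.00910 each, Gm25395 with 0.00979, Snord22 with 0.0108, Gm23262 with 0.0416 and Gm23547 with 0.0489 (edgeR). The 4 Rnu3b values are copies of 1 result, and the sum of all 8 entries was called with an adjusted p of 0.00575 (edgeR).

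Among members that were not called, Gm25776 had an adjusted p of 0.157, Gm22988 of 0.224, Scarna6 of 0.314 and Snora73b of 0.762, while Snora73a, Scarna13 and Rnu3a were at 1.00 (edgeR). Calls for Scarna2 and Scarna10 held under all 10 alternatives, and that for Gm22009 under 9, being lost without replicate 1 (adjusted p = 0.420, edgeR). The count of called members was 3 of 18 in the second quantification, 3 of 19 without replicate 2 and 4 of 23 without replicate 3, where 2.02%, 1.46% and 0.792% of all genes were called, and Gm22009, Scarna2 and Scarna10 were among the members called in each, with Gm23547 as the fourth without replicate 3. It was 9 of 21 without replicate 1 (1.25% of all genes), 9 of 16 with Rnu3b summed (2.29%), 8 of 27 with a mean of at least 1 count (1.61%) and 16 of 19 with a common dispersion (3.05%).

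Differences between single libraries have no replicate check and are described by fold alone, on log2 CPM with a prior count of 2. In replicate 3, 17 of the 27 members were at least 2-fold higher than in replicate 1, against 8.05% of all 13447 genes, and 4 were at least 2-fold lower, against 1.26%. The 4 lower ones were the Rnu3b entries of 215 bases, whose posterior means go the other way; with the 8 Rnu3b entries summed, 14 of 20 genes were higher (8.04% of all genes) and 0 lower (1.23%). The median log2 difference of the members was 1.83, against -0.00 for all genes. Members and all 13447 genes alike had to average at least 10 counts, a minimum that includes replicate 3. Snora74a (0.96, 5 and 34.9 counts) and Gm24119 (5, 8 and 19) met it only with replicate 3, and Snora74a is among the 17. Against replicate 2, replicate 3 was at least 2-fold higher in 14 members (4.97% of all genes) and lower in 4 (0.625%), while replicate 2 was at least 2-fold higher than replicate 1 in 5 members (4.18%) and lower in 0 (1.20%). In the second quantification 17 of 22 members were at least 2-fold higher in replicate 3 than in replicate 1, against 20.8% of all genes there, and 0 lower (1.18%). Against replicate 2, replicate 3 was there at least 2-fold higher in 9 of 22 (12.1%) and lower in 0 (0.535%), and with Rnu3b summed it was lower in 0 of 20 (0.595%). On deposited TPM, replicate 2 was at least 2-fold higher than replicate 1 in 2 members (0.744%) and lower in 2 (1.76%).

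The log2 differences between replicates 3 and 1 were 2.33 for Snord17, 2.18 for Gm26083, 2.14 for Gm23262 and 1.98 for Gm22009. Snora74a, a member only through replicate 3, had 3.17, a fitted value that rests on 0.96 counts in replicate 1 and depends on the prior count. Scarna2 stood at 1.85, Scarna10 at 1.48 and the summed Rnu3b entries at 1.30. The smallest were 0.95 for Scarna13, 0.92 for Snora73b, 0.71 for Gm26448, 0.63 for Rnu3a and 0.40 for Snora73a, which by TPM was lower in replicate 3 (23.9) than in replicate 1 (28.1). Box H/ACA and box C/D members occur at both ends of this range. The median SD over the 3 libraries was 1.04 log2 units for members and 0.133 for all genes. These sets were not matched for abundance, so the part of low counts in this gap was not tested. The median for members also takes each Rnu3b entry separately. The SD was 1.16 for each longer Rnu3b entry and 2.50 for each shorter one, and the split of reads between them is uncertain.

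The mRNAs of the proteins that bind these RNAs were nearer to each other in the 3 libraries. The box C/D core proteins, the methyltransferase Fbl with Nop56, Nop58 and Snu13, summed to 39.6, 37.1 and 42.5 TPM in replicates 1, 2 and 3. The box H/ACA core proteins, the pseudouridine synthase Dkc1 with Nop10, Nhp2 and Gar1, summed to 27.1, 23.5 and 24.6 TPM. None of the 8 core genes and none of 12 assembly and trafficking factors was called by the variation test. It called 2.31% of all genes, so a count of 0 in so small a set says little. Their log2 differences between replicates 3 and 1 lay between -0.36 and 0.54. The sums of both core sets had no library that stood apart as replicate 3 did for the members.

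Nuclear RNAs stood apart in the same direction as the members. Of 10 entries with counts, from a list of RNAs known to be mostly nuclear, 9 were at least 2-fold higher in replicate 3 than in replicate 1, against 8.05% of all genes. Their median log2 difference was 1.84, and 8 were called by the variation test, against 2.31% of all genes. Malat1, a noncoding RNA of nuclear speckles, had 128, 335 and 913 TPM in replicates 1, 2 and 3 (log2 difference 3.08 between replicates 3 and 1; adjusted p = 7.31e-16, edgeR). Neat1, the scaffold of paraspeckles, had 12.9, 24.1 and 66.9 TPM (2.39; adjusted p = 4.14e-22, edgeR). Both were highest in replicate 3 and lowest in replicate 1, as was the members' share of counts. Not every listed RNA had this order. Rpph1 was highest in replicate 2 (4681, 10955 and 10109 CPM in replicates 1, 2 and 3). Rn7sk was nearly level in replicates 2 and 3 (19443 and 20631 CPM). The Rmrp entry of 281 bases had a log2 difference of 0.31 between replicates 3 and 1 and was not called. The part of nuclear RNA and of depth, which was greatest in replicate 3, in the members' spread was not tested.

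**Figure D4:**
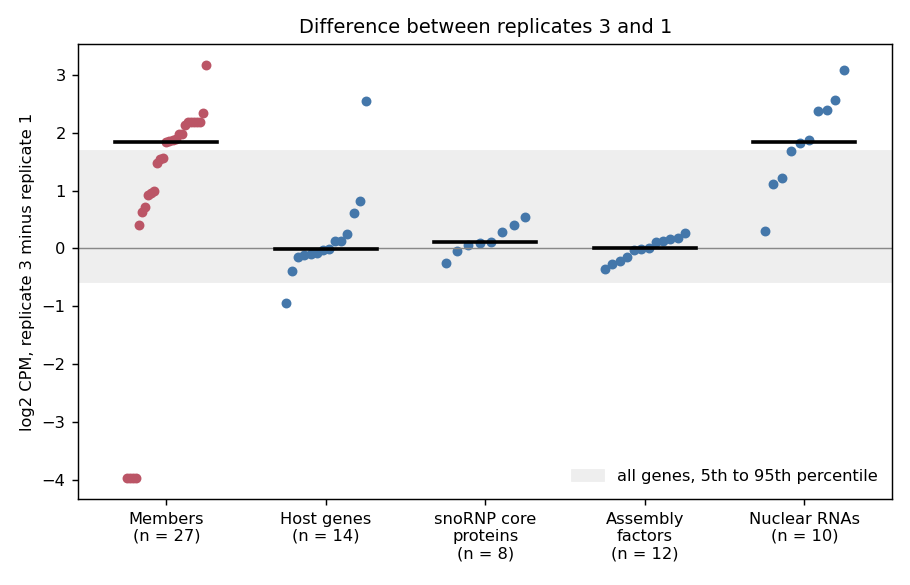
Difference in log2 CPM between replicates 3 and 1 (vertical axis) for the members, their host genes, the snoRNP core proteins, the assembly factors and the nuclear RNAs (horizontal axis); each point is a gene, black bars are medians and the grey band holds the 5th to 95th percentile of all genes. Medians are 1.83 for members and 1.84 for nuclear RNAs but -0.01 for host genes.

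Members were also set beside the genes they lie in. A same-strand host span held 25 of the 27 members, in 16 host genes; 17 members lay in host introns alone, 4 partly and 4 wholly in a host exon, and Scarna2 and Rnu3a in no gene. By TPM, 20 of the 25 members were above their host on average over the libraries, 14 in every library, and 4 were below it in every library. The median log2 ratio, with 0.1 TPM added to both, was 3.26, and 2.80, 2.97 and 3.69 in replicates 1, 2 and 3. Without the 8 Rnu3b entries, whose host Tex14 was at 0.01, 0 and 0.01 TPM, it was 2.56 over 17 members. Over all 25 members the ratio was 1.29 in the second quantification and 1.42 on counts per annotated length, the same sign but a smaller size. Both of these values include the 8 Rnu3b entries, and whether the sign holds without them was not tested. Single members could turn. Gm25776 was above Gtf2a1 by TPM in every library but below it in every library on counts per annotated length. Scarna10, Scarna13 and Gm22009 stayed above their hosts on both.

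Hosts differed widely at this ratio. Scarna10 exceeded Ncapd2 by 6.18 ± 0.42 log2 units, Scarna13 exceeded Snhg10 by 5.64 ± 0.43 and Gm22009 exceeded Kpna4 by 4.03 ± 1.01 (SD, n = 3). The log2 ratio was -3.42 ± 1.25 for Snord17 and Snx5, -4.18 ± 0.42 for Gm26448 and Rpsa and -5.15 ± 0.54 for Gm24119 and Slc25a3 (SD, n = 3). Ncapd2 was at 1.33, 1.02 and 1.54 TPM in replicates 1, 2 and 3, and Slc25a3 at 95.2, 75.1 and 74.4 TPM, so the ratio runs over hosts of very unequal level.

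The difference between libraries was also taken for the host genes. Over 14 host genes with enough counts, the median log2 difference between replicates 3 and 1 was -0.01 and 6 were higher in replicate 3. Snhg20 stood highest at 2.55, and AC121821.1 and Snhg1 stood at 0.82 and 0.62. All 3 hold a member whole within an exon, but so does Eif4a1, which stood at -0.08. Kpna4 had 151.6, 133.7 and 137.4 CPM in replicates 1, 2 and 3, whereas Gm22009 in its intron had 34.3, 101.7 and 135.2. Snhg3 stood at -0.93, farther from 0 than Snora73b (0.92) and Snora73a (0.40) within it.

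The levels also depended on how reads were quantified. In the first quantification the members held a mean of 0.147% ± 0.1002 of TPM, and 0.119% without Snord22. In the second they held 0.0290%, although their share of counts, 0.0134%, was close to the first. For Snord22 the second gave 16.8, 27.8 and 148 counts and 5.99, 5.78 and 18.0 TPM, in place of 0, 0 and 858 TPM. For Gm22009 the means were 349 TPM in the first and 114.1 in the second. In every library each member except Snord22 was no higher by TPM in the second quantification than in the first.

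**Figure D5:**
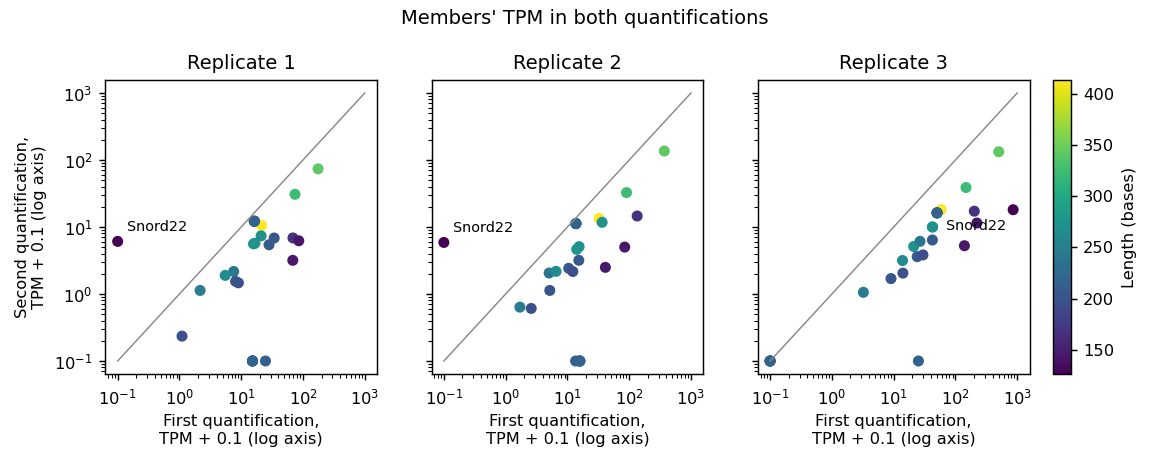
TPM + 0.1 of each member in the first quantification (horizontal axis, log scale) against the second (vertical axis, log scale), 1 panel per library, coloured by annotated length in bases, with the line of equal values. Snord22 is listed at 0 by the first quantification in replicates 1 and 2 and at 858 TPM in replicate 3, against 5.78 to 18.0 TPM in the second.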

How the data were processed

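Per the labels, 3 cytosolic libraries were each made from 1 µg of total RNA after removal of ribosomal RNA. The authors deposited expected counts, TPM and FPKM per gene, made on mm10 with GENCODE M21 per the descriptions beside the files (first quantification), and estimated counts and TPM per transcript (second quantification). The column layouts match RSEM and kallisto; the tools' names and versions and any use of strand are not given in the sources used. Deposited FPKM values served only in an alternative.

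Members, hosts and motifs were taken from GENCODE M21. Rounded expected counts were scaled by TMM and tested with edgeR 4.0.16 (R 4.3.3) for fit to the trended dispersion, threshold 0.05 after Benjamini-Hochberg adjustment; the steps were tested on simulated data. The chi-square per degree of freedom between libraries was 46.2 to 162, so none was a copy of another. A count of 0 allows up to 3 counts, or 0.0891, 0.0628 and 0.0506 CPM in replicates 1, 2 and 3. Alternatives included DESeq2 1.42.0 size factors and dispersions, other filters, prior counts and pseudocounts, the second quantification and leaving out each replicate. Summing the Rnu3b entries, leaving out Snord22 or Rnu3b, and scaling folds by library totals were chosen after seeing the data.

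The members and gene lists were chosen with earlier results of these data known. Genes were named by a rule: the 15 members with the highest TPM, the 10 with the highest counts, all scaRNAs, the 3 genes on each side of the threshold, the 10 with the smallest adjusted p, and the members of the lists. Gm22988 and other members outside it were added to account for every gene.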

Additional observations from a re-analysis of the deposited data

How the results depend on the processing

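Some directions turned. The 4 Rnu3b entries lower in replicate 3 gave a log2 difference of 1.30 over replicate 1 once all 8 were summed, and on TPM Snora73a was lower in replicate 3 than in replicate 1. The median of replicate 2 over replicate 1 went from 0.47, with 21 of 27 members higher, to -0.02 on TPM, with 12 higher. The members numbered 25 to 31 when a replicate was left out, 19 to 31 under other count minimums and 40 in the second quantification, 22 of them shared. Their share of counts was 0.0116% to 0.0198% and of TPM 0.0899% to 0.182% without 1 replicate each, and 0.0290% of TPM in the second quantification against 0.147%. The variation test called 12 of 19 members, 3 to 9 when a replicate was left out, 3 in the second quantification, 8 of 27 with a mean of at least 1 count and 16 with a common dispersion. The 4 members lower in replicate 3 than in replicates 1 and 2 became 0 in the second quantification and 0 with Rnu3b summed, and those higher than in replicate 2 went from 14 to 9 in the second quantification. On TPM, which moves the median of all genes by -0.21 between replicates 3 and 1, 2 members were higher and 2 lower in replicate 2 than in replicate 1, against 5 and 0. The median log2 ratio to the host, 3.26, was 2.84 to 3.58 when a replicate was left out, 2.68 with a pseudocount of 1 TPM, 1.29 in the second quantification, 1.42 on counts per annotated length and 2.56 without Rnu3b. Only the last of these left out the Rnu3b entries, and it was on TPM. The cause of these shifts was not tested, beyond the entries merged or left out. Low counts limit the members near the threshold. No paired analysis was possible because the 3 replicates form 1 group.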

Other observations

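The second quantification held 18 snoRNA or scaRNA genes with a mean of at least 10 counts that were not members, 15 of them under 150 bases long; the examples here were chosen after their values were seen. Gm22442, a scaRNA gene of 144 bases, had 21, 70 and 105 estimated counts in replicates 1, 2 and 3, against 0, 3 and 10 expected counts in the first quantification. Gm24339, a snoRNA gene of 76 bases, had 19, 51 and 93 estimated counts and was listed at 0 in all 3 libraries of the first. Snord118, the U8 RNA needed for maturation of the large-subunit ribosomal RNA, had 5, 8 and 17 estimated counts where the first quantification listed 0. Replicate 3, the deepest library, held the most counts in each of these genes, as it did in 23 of the 27 members. These counts are not scaled for depth. On scaled CPM of the first quantification, 23 of the 27 members were higher in replicate 3 than in replicate 1, against 6637 of all 13447 genes. Of the members, 5 were at 0 in the second quantification, namely the 4 Rnu3b entries of 215 bases and the 213-base Rnu3a entry.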
